A study of Homo sapiens with 4 samples.

Results

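A set of 3912 genomic regions was open in wild-type (WT) HK1 cells whether or not interferon-γ (IFN-γ) had been given, and had no peak in either library of FLI1-knockout cells. HK1 is an established human nasopharyngeal carcinoma line, and chromatin was profiled by ATAC-seq, in which the transposase Tn5 inserts adapters into accessible DNA. The 4 libraries were WT cells under the control condition (WT), WT cells treated with IFN-γ (WT-IFN-γ), FLI1-knockout cells under the control condition (sgFLI1) and FLI1-knockout cells treated with IFN-γ (sgFLI1-IFN-γ), with 1 library and 1 deposited peak list for each. All 4 share the HK1 background, and it is not stated whether the FLI1-knockout cells were 1 clone or a pool. The lists were merged wherever peaks overlapped by at least 1 bp on chromosomes 1 to 22 and X, which gave 93211 merged regions. The 3912 WT-only regions, selected on measured peaks (both WT lists held one and neither sgFLI1 list did), made up 4.20% of them. In the opposite direction, 3322 regions had a peak in both sgFLI1 lists and in neither WT list, and 40876 had a peak in all 4.

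Each group had a single library, so a difference between groups has no replicate check and carries no p-value. Intervals are 95% limits of counting error within a library, by Wilson's method for shares and by the exact Poisson method for tag numbers. Neighbouring regions are not independent of each other, and the intervals take no account of this. The height of a peak is given as its summit pileup, the whole number of sequenced tags stacked over the summit, which was recovered from the fold enrichment and p-value in each list. Sequencing was deeper in the WT libraries, with a background of 8.04 (WT) and 8.84 (WT-IFN-γ) tags per kb of genome against 6.93 (sgFLI1) and 6.86 (sgFLI1-IFN-γ). The label of the line was read against promoter peaks of marker genes at most 1 kb from an annotated transcription start (TSS). Peaks were present at 4 of 8 epithelial markers in WT and at 5 of 8 in each of the other libraries, and the keratin 8, keratin 18, EPCAM and SFN promoters were open in all 4. No library had a peak at the basal keratin genes KRT5 and KRT14 or at TP63. Among markers of other cell types, 0 or 1 of 4 leukocyte genes, 1 of 4 fibroblast genes and 0 to 2 of 3 endothelial genes had one.

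FLI1 belongs to the ETS family of transcription factors, whose DNA-binding domain recognizes a GGAA core, and it is known for its part in blood and endothelial cell development. Open chromatin marks promoters, which lie at the TSS and often carry CpG-rich DNA, and distal elements such as enhancers, where factors of the AP-1, TEAD, RUNX and forkhead (FOX) families bind, or insulators bound by CTCF. IFN-γ is a T-cell cytokine that switches on genes of antigen presentation and of tryptophan breakdown to kynurenine. Absence from a peak list is not absence of signal, because a peak is listed only above the limit of its library.

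The sequences around the summit in WT are shown first for the 6 WT-only regions with the highest −log10 q in the weaker WT list. They were not chosen by height (GRCh38, plus strand, the summit base and 100 bp on each side). No base is in capitals because none of the 17 patterns searched was found within 100 bp of these 6 summits.
within CCDC200, beside a U2 snRNA gene, chr17:43251607-43251807: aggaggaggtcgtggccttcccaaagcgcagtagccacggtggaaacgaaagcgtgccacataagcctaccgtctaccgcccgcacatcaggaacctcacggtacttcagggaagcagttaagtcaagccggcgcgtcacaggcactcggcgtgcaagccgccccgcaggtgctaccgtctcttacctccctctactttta
upstream of HAPSTR1, chr16:9079035-9079235: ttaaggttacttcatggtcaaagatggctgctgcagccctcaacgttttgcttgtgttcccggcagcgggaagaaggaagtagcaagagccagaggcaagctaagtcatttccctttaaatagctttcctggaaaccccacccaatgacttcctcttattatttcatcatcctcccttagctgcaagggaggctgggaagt
FOXP2 intron, chr7:114530160-114530360: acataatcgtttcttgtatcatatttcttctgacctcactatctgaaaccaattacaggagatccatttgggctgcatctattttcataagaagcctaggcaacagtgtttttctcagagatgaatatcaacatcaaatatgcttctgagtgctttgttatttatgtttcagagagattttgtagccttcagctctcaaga
near KRTAP21-1, chr21:30769992-30770192: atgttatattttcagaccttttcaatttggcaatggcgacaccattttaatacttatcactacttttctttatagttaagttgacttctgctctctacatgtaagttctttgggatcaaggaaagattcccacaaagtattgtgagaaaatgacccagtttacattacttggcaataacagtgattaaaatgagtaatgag
intergenic, nearest gene SNX13, chr7:17696565-17696765: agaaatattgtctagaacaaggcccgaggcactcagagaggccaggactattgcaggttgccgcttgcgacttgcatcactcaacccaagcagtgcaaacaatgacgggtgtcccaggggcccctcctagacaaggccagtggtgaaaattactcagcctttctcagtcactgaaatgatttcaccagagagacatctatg
downstream of SUGCT, chr7:40986495-40986695: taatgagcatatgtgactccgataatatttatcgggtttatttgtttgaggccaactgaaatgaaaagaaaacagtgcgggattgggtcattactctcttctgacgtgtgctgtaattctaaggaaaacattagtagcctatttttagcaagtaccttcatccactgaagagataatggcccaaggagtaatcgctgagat

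Only 11 WT-only regions held the ETS consensus CCGGAAGT, and 3 of the most significant are shown because this is a preferred site of the family to which FLI1 belongs. Capitals mark the ETS matches and, where present, matches to CTCF, AP1 (TGACTCA or TGAGTCA) and E-box (CACGTG) patterns. Bases annotated as untranslated were left out of the NSUN5 promoter, which shortened it to 151 bp.
NSUN5 promoter, chr7:73308827-73308977: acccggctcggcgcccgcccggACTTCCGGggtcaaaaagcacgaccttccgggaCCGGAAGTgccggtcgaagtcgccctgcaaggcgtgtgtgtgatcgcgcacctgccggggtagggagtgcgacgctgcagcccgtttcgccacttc
upstream of CDH8, chr16:62225786-62225986: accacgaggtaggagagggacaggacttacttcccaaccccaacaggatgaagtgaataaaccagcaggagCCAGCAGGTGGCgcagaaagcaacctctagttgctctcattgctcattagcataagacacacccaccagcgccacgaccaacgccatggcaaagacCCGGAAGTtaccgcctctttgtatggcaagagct
upstream of NHS, chrX:17361712-17361912: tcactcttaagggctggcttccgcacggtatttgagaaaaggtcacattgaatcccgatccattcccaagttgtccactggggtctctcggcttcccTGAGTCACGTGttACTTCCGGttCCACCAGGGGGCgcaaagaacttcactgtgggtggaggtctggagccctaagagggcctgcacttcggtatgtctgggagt
The NSUN5 sequence carries the ETS pattern on both strands. The region upstream of NHS carries AP1 and E-box matches that overlap, followed by ETS and CTCF matches.

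A further 4 sequences come from loci described below. They are the part of the FLI1 region outside untranslated sequence (85 bp), the part of the SLIT2 promoter before its TSS (147 bp, with an SP/KLF match in capitals), and 2 of the 8 regions within SOX5, of which the first has an AP1 match in capitals and the second has none.
FLI1 5′ region, chr11:128693144-128693228: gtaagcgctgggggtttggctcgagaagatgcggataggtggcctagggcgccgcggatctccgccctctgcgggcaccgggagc
SLIT2 promoter, chr4:20251758-20251904: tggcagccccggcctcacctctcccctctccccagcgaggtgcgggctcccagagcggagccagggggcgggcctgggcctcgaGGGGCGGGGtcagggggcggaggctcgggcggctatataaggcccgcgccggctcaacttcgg
SOX5 region at 43 tags, chr12:24066907-24067107: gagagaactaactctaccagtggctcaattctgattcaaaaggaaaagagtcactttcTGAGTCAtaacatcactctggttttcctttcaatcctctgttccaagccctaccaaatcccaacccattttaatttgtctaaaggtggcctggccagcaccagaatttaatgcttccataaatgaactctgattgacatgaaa
SOX5 region at 30 tags, chr12:24226986-24227186: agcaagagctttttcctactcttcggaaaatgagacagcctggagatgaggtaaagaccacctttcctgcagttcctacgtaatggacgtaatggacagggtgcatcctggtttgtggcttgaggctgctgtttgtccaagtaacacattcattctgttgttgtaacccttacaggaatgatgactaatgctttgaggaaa

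WT-only regions were low peaks. The median summit pileup was 17 tags in WT (interquartile range, 13 to 23) and 18 tags in WT-IFN-γ (14 to 26), whereas regions in all 4 lists had medians of 46 and 50 tags. The tallest reached 229 tags in WT and 195 in WT-IFN-γ. The lowest had 8 tags in each. Ranked by −log10 q, the median WT-only region stood at percentile 23.7 of the WT list and 28.2 of the WT-IFN-γ list. Only 10.1% (9.19 to 11.1) ranked above the middle of the WT list and 16.5% (15.4 to 17.7) above the middle of the WT-IFN-γ list. Nearly all, 3882 of 3912, were made of 1 peak from each WT library. The WT and WT-IFN-γ summits lay within 100 bp of each other in 65.4% (63.9 to 66.9), below the 76.5% (76.1 to 76.9) of regions in all 4 lists.

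The rule that selected the regions took 7.84% of the 49895 regions open in both WT libraries, and height was closely tied to this share. Of regions with 8 to 11 tags in WT, 39.7% (37.1 to 42.3) had no sgFLI1-list peak, and the share fell at every further step of height. It was 15% (14.3 to 15.8) at 16 to 23 tags, 3.56% (3.18 to 3.97) at 32 to 47 tags and 0.469% (0.372 to 0.593) at 64 tags or more, where 70 WT-only regions remained among 14913. The opposite set was of a similar size, with 6.84% (6.61 to 7.06) of 48600 regions open in both sgFLI1 libraries lacking a WT peak.

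**Figure D1:**
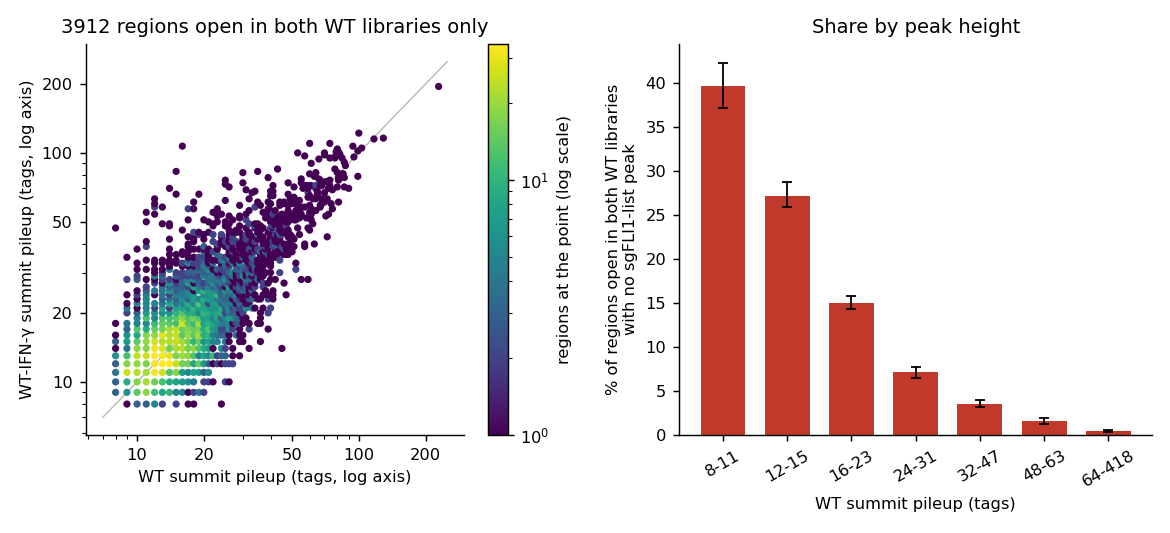
Left, summit pileup of each WT-only region in WT (horizontal) and WT-IFN-γ (vertical), both in tags on log axes, with colour giving the number of regions at a point and the grey line marking equal pileups; most points lie below 30 tags and 1 reaches 229 and 195. Right, share of regions open in both WT libraries that had no sgFLI1-list peak, by WT summit pileup, with 95% Wilson intervals; the share falls from 39.7% to 0.469%.

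At its edges the rule separated regions that differed by a few tags. The least significant member in WT, at chr19:7687294-7687782 in an exon of TRAPPC5, had 8 tags in WT and 9 in WT-IFN-γ, at a −log10 q of 1.33 in WT. The least significant in WT-IFN-γ, in ZNF385D, had 11 and 8 tags. Just outside, a region near CLK1 had 11 and 10 tags in the WT libraries and was left out because of a 7-tag peak in sgFLI1 with a −log10 q of 1.36. Another with 24 and 17 tags was left out because of a 7-tag peak in sgFLI1-IFN-γ.

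The listing limits of the sgFLI1 libraries were set beside the WT signal. The WT pileup and its local background were scaled to sgFLI1, and the WT-IFN-γ values to sgFLI1-IFN-γ. The scale was the ratio of lowest background tags, 2.20 in each WT library, 1.80 in sgFLI1 and 1.75 in sgFLI1-IFN-γ. Each result was set against the lowest −log10 p of the knockout list (3.13 and 3.16). On that scale 3809 of 3912 regions (97.4%; 96.8 to 97.8) reached the limit in both, and 3310 did when the limit was raised to a −log10 q of 2. Among regions open in both WT libraries, 39.2% (33.5 to 45.2) of those whose scaled signal fell short were WT-only, against 7.67% (7.44 to 7.91) of those that reached the limit. The margin was narrow for most: 15.4% (14.3 to 16.6) stood at 2 times the listing limit or more in both comparisons, and 1.35% (53 regions) at 3 times or more. The regions were selected on these same WT peaks, so a high share is built into the comparison, and a pileup of 17 tags has a Poisson interval of 9.90 to 27.2. The part of depth in the missing peaks was not tested. The nearest sgFLI1-list peak was a median of 11384 bp away (interquartile range, 4692 to 30862), with 5.32% of regions within 1 kb of one and 8.0% more than 100 kb from any.

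Among the 10 most significant WT-only regions, the tallest by far lay at chr17:43251456-43251775, with its summit 312 bp from the start of an annotated U2 small nuclear RNA gene and within the CCDC200 gene. U2 RNA is a component of the spliceosome and is encoded by near-identical copies. It had 229 tags in WT (200 to 261) and 195 in WT-IFN-γ (169 to 224), at a −log10 q of 247 and 219. The limit for a peak at this place was 15 tags (sgFLI1) or 12 tags (sgFLI1-IFN-γ), and neither list had one within 19730 bp. Stretches of 31 bases that occur more than once in the genome made up 63.7% of the window around its summit, with a median of 12 copies. Reads of low mapping quality had been removed, so the share of tags that came from the other copies was not tested.

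The next 9 regions had unique or mostly unique sequence. A region upstream of HAPSTR1, a gene of the cellular stress response (chr16:9078877-9079319, at −12509 bp from its TSS), had 100 tags in WT (81.4 to 122) and 122 in WT-IFN-γ (101 to 146). Its nearest sgFLI1-list peak was 1175 bp away. A region in intron 2 of FOXP2, a forkhead transcription factor, had 86 tags (68.8 to 106) and 71 (55.5 to 89.6), and no sgFLI1-list peak lay within 99396 bp. Beside KRTAP21-1, a hair keratin-associated protein gene, 84 and 81 tags were counted (chr21:30769833-30771231). In these 3 regions the Poisson intervals with and without IFN-γ, uncorrected for depth, overlapped.

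An intron of TSHZ2, which encodes a teashirt-type zinc finger factor, held a region with 84 tags in WT and 95 in WT-IFN-γ (chr20:53074825-53075728). Regions on chromosome 7 lay far from any coding gene, 125032 bp from the TSS of SNX13 with 59 and 67 tags and 178438 bp from that of SUGCT with 73 and 70 tags. At chr5:96492134-96493646, upstream of the calpain inhibitor gene CAST, the pileup was 64 tags in WT and 82 in WT-IFN-γ. The remaining places were taken by intron 1 of SPIRE2, an actin nucleator gene (80 and 82 tags), and by CUX1, a homeobox factor gene (95 and 96 tags). Across all 10, the knockout limits were 11 to 28 tags in sgFLI1.

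**Figure D2:**
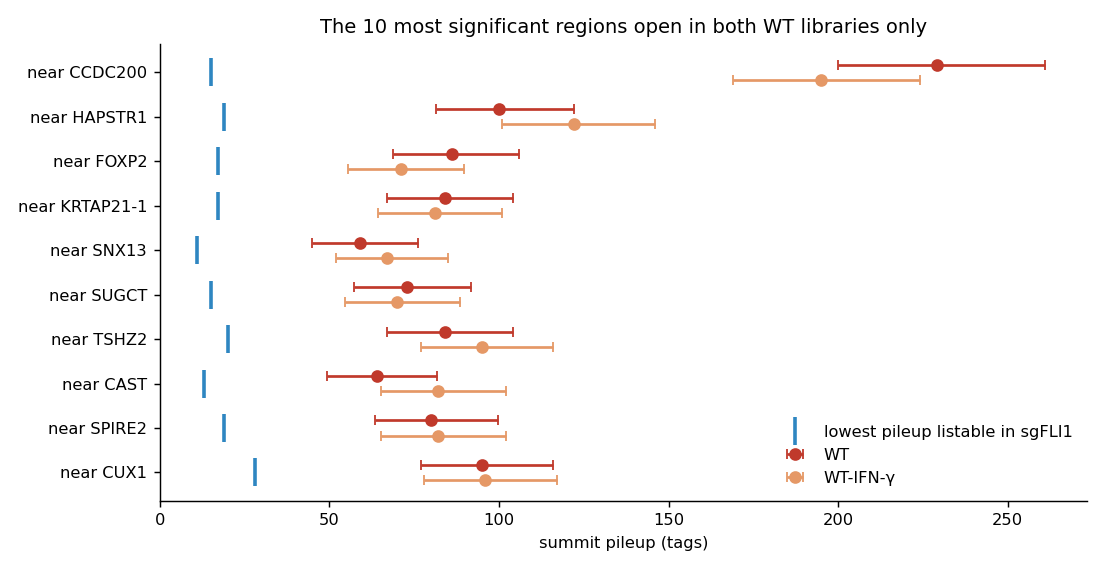
Summit pileup in tags of the 10 most significant WT-only regions, named by the nearest protein-coding gene, in WT (red) and WT-IFN-γ (orange) with exact 95% Poisson intervals, and the lowest pileup that would have been listed in sgFLI1 (blue ticks). All 20 pileups lie above the ticks, which run from 11 to 28 tags.

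WT-only regions were mostly distal. Their summits lay within 3 kb of a TSS in 15.6% (14.5 to 16.8), in 15.3% (14.1 to 16.5) of sgFLI1-only regions and in 38.1% (37.6 to 38.5) of regions in all 4 lists. When the latter were weighted to the WT ranks of the WT-only regions, their share was 20.2%. The distance to the nearest TSS had a median of 23158 bp against 8288 bp for regions in all 4 lists, and 33.8% (32.4 to 35.3) of WT-only regions were more than 50 kb from any TSS. For sgFLI1-only regions the median was 24777 bp, and 34.3% (32.7 to 35.9) were that far from a TSS. Introns of protein-coding genes held 45.8% of WT-only regions (44.2 to 47.3), exons 6.08% (5.38 to 6.88), and coding sequence 1.74% (1.37 to 2.20), while 48.1% (46.6 to 49.7) lay outside protein-coding genes. In sgFLI1-only regions the same shares were 43.3% (41.6 to 45.0), 5.15% (4.45 to 5.95), 1.66% (1.27 to 2.15) and 51.5% (49.8 to 53.2). The DNA around the summit was poor in G and C, with a median GC content of 44.8% in WT-only regions, 49.8% in sgFLI1-only regions and 54.2% in regions of all 4 lists. At like rank the means were 46.2% in WT-only regions and 50.4% in regions of all 4 lists. Mean CpG number in the window of 100 bp either side of the summit was 3.28, 3.16 and 8.31 in the same 3 sets, and 4.16 in regions of all 4 lists at like rank. Windows in which over 50% of the 31-base stretches recur in the genome made up 3.99% (3.42 to 4.65) of WT-only regions, 2.95% (2.43 to 3.58) of sgFLI1-only regions and 1.80% (1.68 to 1.94) of regions in all 4 lists.

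At promoters, 343 WT-only regions had a summit within 1 kb of a TSS. The most significant was 258 bp downstream of an internal CUX1 start (95 and 96 tags). It was followed by a region in intron 1 of NHS, a gene of actin organization mutated in Nance-Horan syndrome. That region lay 87 bp from an internal NHS start and had 48 tags in WT (35.4 to 63.6) and 51 in WT-IFN-γ (38.0 to 67.1). ARRDC4, an arrestin-domain gene, had 73 tags (57.2 to 91.8) and 54 (40.6 to 70.5), and its window carries an AP1 match and an E-box. The zinc finger gene ZNF619 had 49 and 54 tags 8 bp from its TSS, and the kinase gene STK26 had 52 and 51. In all 5 the limit of the sgFLI1 list was 10 to 28 tags. Promoter members carried fewer CpG than promoters in general, with a mean of 9.41 per window against 16.3 over all promoter regions open in both WT libraries.

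Several of these promoters belong to zinc finger genes, a group named after its values were seen. Of 409 zinc finger promoter regions open in both WT libraries, 17 were WT-only (4.16%; 2.61 to 6.56), against 2.44% (2.20 to 2.72) of 13336 other promoter regions, with intervals that overlap. Of 388 zinc finger promoters open in both sgFLI1 libraries, 2 were sgFLI1-only (0.515%; 0.141 to 1.86), against 1.76% (1.55 to 2.0) of the others. Chromosome 19 held 7 of the 17, and 164 of the 409 zinc finger promoter regions open in both WT libraries. Its WT-only share was 4.27% (2.08 to 8.55), near the 4.16% of all 409. ZNF429 had 37 and 39 tags, ZNF100 had 34 and 32, ZNF253 had 34 and 39 and ZNF566 had 38 and 40 (WT first). At all 4 the Poisson intervals of these tag numbers, uncorrected for depth, overlapped, which does not show equal height.

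Short sequence patterns near the summit differed between WT-only and sgFLI1-only regions, with RUNX and AP1 patterns less frequent and FOX and CTCF patterns more frequent in WT-only regions. Both strands of each window were searched, and a match is a description of the sequence and not evidence of binding. The RUNX pattern TGTGGTT was present in 4.24% (3.66 to 4.92) of WT-only regions, 11.8% (10.8 to 13) of sgFLI1-only regions and 4.59% of regions in all 4 lists. The AP1 pattern was present in 17.2% (16.1 to 18.4), 26.0% (24.6 to 27.6) and 18.9%. The forkhead pattern TGTTTAC ran the other way, with 5.50% (4.82 to 6.25), 2.20% (1.75 to 2.75) and 2.91%. CTCF did so too, at 6.49% (5.76 to 7.31) in WT-only and 2.77% (2.26 to 3.38) in sgFLI1-only regions, but it was more frequent still in regions of all 4 lists (8.65%).

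Against regions of all 4 lists weighted to like rank, WT-only regions again had fewer RUNX and AP1 patterns and more FOX patterns. RUNX was 5.88% there, AP1 22.9% and FOX 3.24%, each outside the interval of the WT-only regions, whereas CTCF was 7.42%, above their interval. Away from promoters, more than 3 kb from a TSS, WT-only regions had RUNX in 4.48% (3.83 to 5.24) and sgFLI1-only regions in 12.7% (11.5 to 14). FOX was present in 5.85% (5.10 to 6.70) and 2.24% (1.75 to 2.85) of the same distal sets, and in 3.71% (3.48 to 3.94) of distal regions in all 4 lists. The TEAD pattern CATTCCA stood at 5.37% (4.70 to 6.12) in all WT-only and 7.38% (6.53 to 8.31) in all sgFLI1-only regions, and the E-box at 2.66% (2.20 to 3.21) and 4.09% (3.47 to 4.82). The pattern AGATAAG, of the GATA family, stood at 3.73% (3.18 to 4.37) and 3.31% (2.75 to 3.98), with overlapping intervals. In regions of all 4 lists at like rank, GATA stood at 2.86%, below the WT-only interval. TEAD at 5.15% and the E-box at 2.96% there were inside the WT-only intervals. The weighting matched rank and not base composition. Mean GC content was 46.2% in WT-only regions and 50.4% in both sgFLI1-only regions and regions of all 4 lists at like rank. The part of base composition in these shares was not tested.

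ETS patterns were rare. CCGGAAGT was found in 11 WT-only regions (0.281%; 0.157 to 0.503), in 0.301% (0.164 to 0.553) of sgFLI1-only regions and in 0.347% of regions in all 4 lists at like rank, so these shares did not differ beyond counting error. Over all regions open in both WT libraries the share was 1.64%. The variant CAGGAAGT was found in 1.79% (1.42 to 2.25) of WT-only regions, against 2.68% (2.18 to 3.29) of sgFLI1-only regions and 2.56% of regions in all 4 lists at like rank. The most significant member with CCGGAAGT was the promoter of NSUN5, a ribosomal RNA methyltransferase gene, with 40 tags in WT (28.6 to 54.5) and 33 in WT-IFN-γ (22.7 to 46.3). The region upstream of the cadherin gene CDH8 had 27 and 29 tags, with no sgFLI1-list peak within 1523339 bp. Runs of at least 3 GGAA units occurred in 1 WT-only region. The remaining patterns showed NFKB in 3.50%, SP/KLF in 1.41%, CRE in 0.383%, IRF in 0.256%, CEBP in 0.128%, GRHL in 0.0256% and the p53 family in 0 of WT-only regions. Each of these intervals overlapped that of sgFLI1-only regions. In regions of all 4 lists at like rank, SP/KLF stood at 2.14% and IRF at 0.567%. Both were above the WT-only intervals (1.08 to 1.83 and 0.139 to 0.470).

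**Figure D3:**
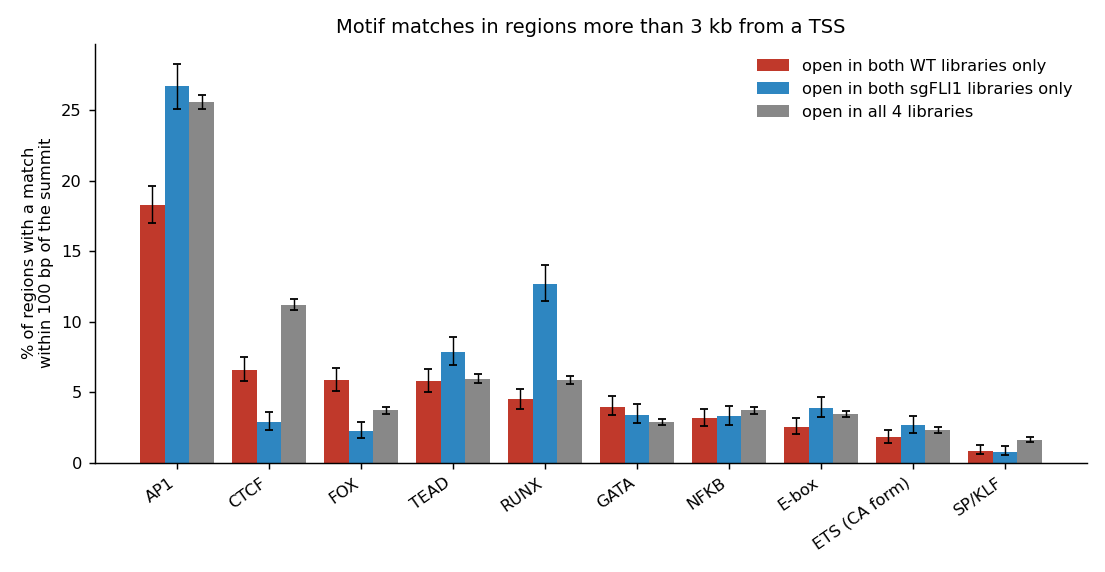
Share of regions more than 3 kb from a TSS with a match within 100 bp of the summit (vertical axis, percent, with 95% Wilson intervals) for patterns found in at least 50 WT-only regions, in WT-only regions (red), sgFLI1-only regions (blue) and regions in all 4 lists (grey). RUNX stands at 4.48%, 12.7% and 5.85% and FOX at 5.85%, 2.24% and 3.71%.

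Some WT-only regions lay next to each other along the genome. Counting all merged regions in order, 15.1% (14 to 16.3) had another WT-only region as direct neighbour, and the longest uninterrupted run was of 5, at chr9:87324420-87374748, upstream of DAPK1, which encodes a death-associated kinase. Its pileups were 13 to 53 tags in WT and 15 to 55 in WT-IFN-γ. Runs of 4 lay in GABRB1 (a GABA receptor subunit), at BANK1 (a B-cell scaffold protein), in VSTM2A, in LINGO2, at 2 places on chromosome 18 beside NETO1 and FBXO15, and upstream of TSHZ2 on chromosome 20. The highest of these was upstream of TSHZ2, where the 4 regions spanned 96.8 kb and reached 53 tags in WT and 100 in WT-IFN-γ. For sgFLI1-only regions the longest run was 4, and 12.7% (11.6 to 13.9) were neighbours of another.

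The clusters were longer when only regions open in both WT libraries were counted as neighbours, a count added after the data were seen. There were then 22 runs of 5 or more WT-only regions with 141 members (3.60%; 3.06 to 4.24), and the longest was of 10. The same count in the other direction, over regions open in both sgFLI1 libraries, gave 1 run of 5 sgFLI1-only regions (0.151%; 0.0643 to 0.352). The run of 10 covered 1019 kb at SOX5. A run of 9 covered 178 kb at DAPK1 with 10 WT peaks and 1 sgFLI1 peak of 8 tags. Another run of 9 covered 698 kb between NETO1 and FBXO15 on chromosome 18, with 11 peaks in each WT library and 0 in either sgFLI1 list.

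SOX5, a developmental factor of the SOX family (ENSG00000134532.20, chr12:23529504-24562544, minus strand), had the most WT-only regions of any protein-coding gene, 8 of the 9 regions open in both WT libraries between the gene's end and 10 kb upstream. WT had 12 peaks there and WT-IFN-γ had 17, while each sgFLI1 list had 1. In WT the 8 regions had 11, 21, 35, 43, 34, 30, 29 and 42 tags, in order along the chromosome, and in WT-IFN-γ they had 14, 26, 61, 46, 49, 82, 24 and 40 tags. All 8 lay outside the canonical transcript, at −63.0 to −550.3 kb from its TSS. The region with 30 and 82 tags was at −277.4 kb. The listing limits were 7 to 13 tags (sgFLI1) and 7 to 16 tags (sgFLI1-IFN-γ). The 1 region listed in all 4 libraries, at the far upstream end of the gene, had 63 tags in WT and 91 in WT-IFN-γ against 12 in each sgFLI1 library.

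The 3 nearest regions upstream of the gene with a peak in all 4 libraries were also read, as tags without correction for depth. At −666.4 kb from the canonical TSS the WT libraries had 12 tags without and 11 with IFN-γ, and the knockout libraries 13 and 20. At −712.1 kb the values were 28 and 51 in the WT libraries and 42 and 37 in the knockout libraries, and at −770.0 kb they were 12 and 29 against 30 and 27. Without IFN-γ, none of the 3 had more tags in WT, the deeper library, than in sgFLI1. With IFN-γ, WT-IFN-γ had more than sgFLI1-IFN-γ at −712.1 kb (51 against 37) and −770.0 kb (29 against 27). It had fewer at −666.4 kb (11 against 20). The part of regional signal level at SOX5 was not tested. Downstream of the gene, WT-only regions lay at 465.2, 466.8 and 686.9 kb. Within 1 Mb of the gene, 18 regions in all 4 lists had a median log2 ratio of −0.13 (sgFLI1 to WT) and of 0.00 (sgFLI1-IFN-γ to WT-IFN-γ), after correction for depth and centring on the median of all such regions.

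**Figure D4:**
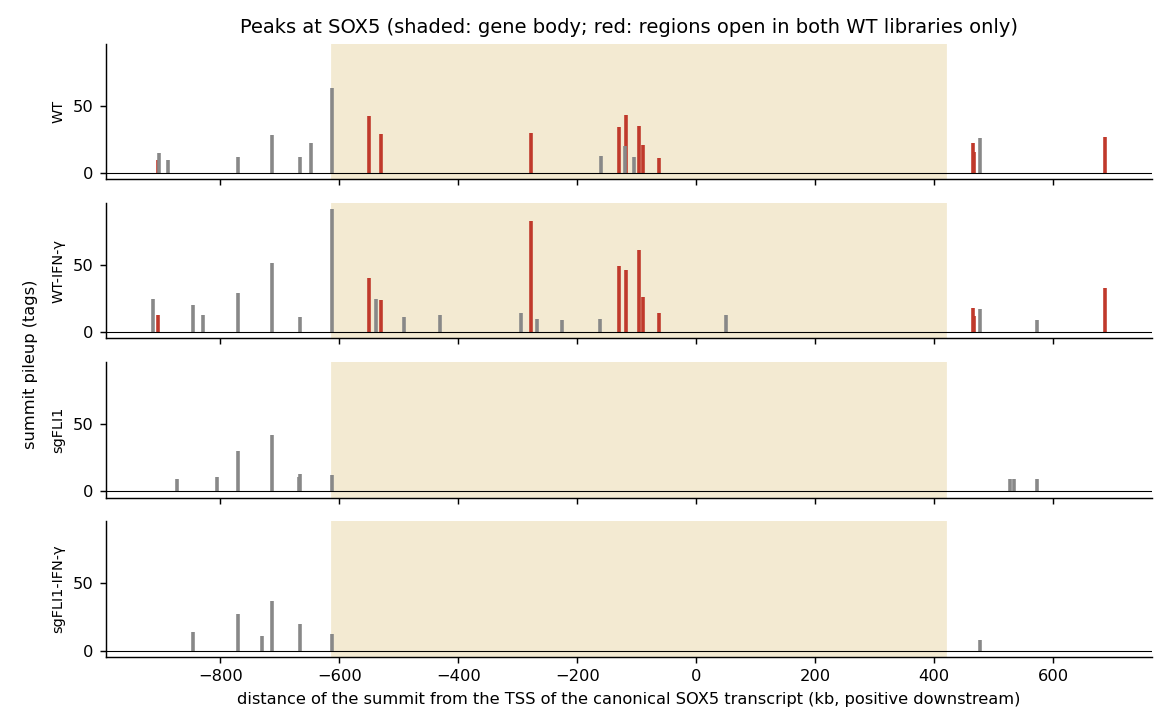
Summit pileup (vertical axis, tags) of every listed peak around SOX5 in the 4 libraries, by distance in kb from the TSS of the canonical transcript, with WT-only regions in red, other peaks in grey and the gene body shaded. Within the gene and 10 kb upstream the sgFLI1 lists have 1 peak each, of 12 tags at the upstream edge, while WT has 12 and WT-IFN-γ 17.

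Other long genes followed with fewer regions. PDE4D, a cAMP phosphodiesterase gene, had 7 WT-only regions, but these were among 33 open in both WT libraries. LINGO2 and PLCB1, a phospholipase C gene, had 6 of 7 each, with 9 WT peaks each and 1 or 2 peaks in each sgFLI1 list. SYNE1 (a nuclear envelope protein) had 6 of 9, and DAPK1 and SLC25A21 (a mitochondrial carrier) 6 of 10 each. FOXP2 had 5 of 6, and ANO3 and the dystrophin gene DMD 5 of 9 each. EYS had 5 of 10, LMO7 5 of 14, DLGAP1 5 of 19 and GSE1 5 of 38. These 7 genes with 5 regions tie for the last 3 of 10 places. In all, 2039 of 19970 protein-coding genes had a WT-only region within the gene or 10 kb upstream. The 14 genes named spanned 211 to 2242 kb, and longer genes have more room for a region.

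Chromosomes differed in the share of WT regions that the knockout lists lacked. It was highest on chromosome 18 (17.6%; 15.2 to 20.3) and X (13.2%; 11.4 to 15.2) and lowest on chromosome 22 (4.09%; 3.06 to 5.44) and 1 (5.05%; 4.48 to 5.69). The signal of regions listed in all 4 libraries also varied by chromosome. Its median log2 ratio of sgFLI1 to WT was −0.33 on chromosome 18, −0.30 on 16, −0.23 on 19 and −0.20 on 9, and −0.36, −0.28, −0.18 and −0.20 under IFN-γ. The measures did not always go together, since chromosome 16 had a share of 8.62% and chromosome 19 of 5.70%, near or below the 7.84% of the genome. On X, with a share of 13.2%, the ratio was 0.01 without and −0.03 with IFN-γ.

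Within chromosomes, the first 20 Mb of X combined a high share with low ratios. In bins of 10 Mb with at least 50 regions open in both WT libraries (283 bins), the WT-only share had a median of 7.69% and ran from 1.14% to 29.7%. The first 10 Mb of X had 28.7% (21.6 to 37.0) with a median log2 ratio of shared regions of −0.72, and −0.85 under IFN-γ, and the next 10 Mb had 21.6% (15.8 to 28.7) with −0.60 and −0.61. The region at the internal NHS start and the NHS-upstream region with the ETS pattern lie in the latter. The next 10 Mb of X had 23.7% (16.2 to 33.2) with ratios of −0.10 and −0.11. Bins at 70 to 80 and 80 to 90 Mb of chromosome 9, the latter with the DAPK1 cluster, had 22.8% and 23.3% with ratios of −0.46 and −0.42. The bin with the highest share, at 80 to 90 Mb of chromosome 7, had 29.7% (21.3 to 39.7) with a ratio of −0.09. In the 20 bins with a ratio of −0.3 or less, 14.6% (13.4 to 15.9) of regions were WT-only, and in the others 7.34% (7.11 to 7.58). Those 20 bins held 440 of the 3912 regions. Across bins, which share libraries and depth, Spearman's rho between share and ratio was −0.37 and Pearson's r −0.44. The part of the regional signal level in the WT-only calls was not tested.

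**Figure D5:**
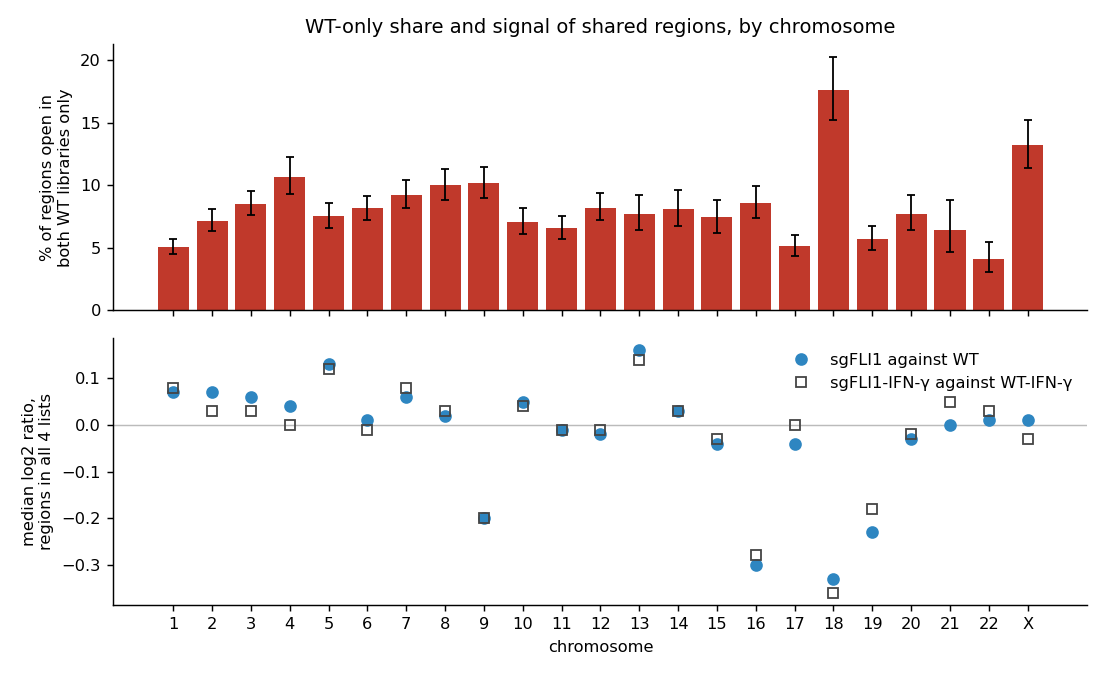
Top, share of regions open in both WT libraries that were WT-only, by chromosome, in percent with 95% Wilson intervals. Bottom, median log2 ratio of depth-corrected pileups in regions of all 4 lists for sgFLI1 against WT (filled circles) and sgFLI1-IFN-γ against WT-IFN-γ (open squares); chromosome 18 has the highest share, 17.6%, and the lowest ratios, −0.33 and −0.36, while X has 13.2% and ratios near 0.

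Few of these regions differed 2-fold between WT and WT-IFN-γ. After division by tag density, the median log2 ratio of WT-IFN-γ to WT was −0.05 over the 3882 regions with 1 peak from each list, and 95% of them lay between −0.92 and 1.05. The ratio was at least 2-fold higher in 125 (3.22%; 2.71 to 3.82), against a background of 1.81% of all 48949 regions with 1 peak in each WT list, and at least 2-fold lower in 66 (1.7%; 1.34 to 2.16), against 0.919%. WT-only regions are lower than others, and low pileups have wider counting intervals. The part of this in the counts was not tested. By the fold enrichment in the deposited lists, 52 were 2-fold higher and 6 lower.

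The largest ratio was at chr14:100332110-100333213 near SLC25A47, a mitochondrial carrier gene, with 16 tags in WT (9.15 to 26.0) and 107 in WT-IFN-γ (87.7 to 129), 2.61 on the log2 scale. Next came a site within FARS2, which encodes a mitochondrial tRNA synthetase, at 8 and 47 tags (2.42), and a site upstream of the kinesin gene KIF13A at 15 and 83 tags (2.33). A site whose nearest gene is GADD45G had 12 and 63 tags, one in XPO6 had 14 and 70, one in YWHAQ had 11 and 55, and one upstream of TSHZ2, within its run of 4, had 12 and 60. Poisson intervals of the 2 pileups did not overlap at any of these 7. The sites were picked for their large ratios, so this is no separate check of them. The lowest ratio, −1.82 on the log2 scale, was near POMGNT2, with 45 tags in WT (32.8 to 60.2) and 14 in WT-IFN-γ (7.65 to 23.5), followed by 24 and 8 tags near BTG2, an antiproliferative gene. Of the 125 regions that were higher, 27 held an AP1 pattern (21.6%; 15.3 to 29.6), against 17.1% (15.9 to 18.3) of those less than 2-fold apart. The IRF pattern was in 2 of the 125 (1.60%; 0.440 to 5.65) and in 8 of 3691 less than 2-fold apart (0.217%; 0.110 to 0.427).

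At the targeted gene itself, 1 WT-only region covered the 5′ part of FLI1 (chr11:128692854-128693883), where an exon of the antisense RNA SENCR is also annotated. Its summit lay 146 bp from the nearest FLI1 start. It had 12 tags in WT (6.20 to 21.0) and 22 in WT-IFN-γ (13.8 to 33.3), and the listing limits were 7 (sgFLI1) and 9 tags (sgFLI1-IFN-γ). This does not check the knockout, which is a change of sequence. IDO1, the first enzyme of the kynurenine pathway, and KAT5, an acetyltransferase gene, had 0 WT-only regions. CREBBP, which encodes the acetyltransferase CBP, had 2. That in intron 13 (chr16:3770965-3772631) had 38 tags in WT (26.9 to 52.2) and 37 in WT-IFN-γ (26.1 to 51.0) with limits of 13 tags in each knockout library, and that in intron 1 had 11 and 15 tags.

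Of all protein-coding genes, 1399 of 19962 (7.01%) had a WT-only region within 10 kb of a TSS, and gene lists were read against that share. Among 27 ETS factors there were 3 (11.1%; 3.85 to 28.1), namely FLI1, ERG and ETV4. Among 69 IFN-γ-inducible genes there were 5 (7.25%; 3.13 to 15.9). These were the PARP9 and DTX3L pair of DNA-damage response genes, which share 1 region with 31 tags in WT and 38 in WT-IFN-γ, the death ligand gene TNFSF10 (12 and 14 tags), the death receptor gene FAS (12 and 11) and the antiviral gene RSAD2. The RSAD2 promoter had 10 tags in WT (4.80 to 18.4) and 33 in WT-IFN-γ (22.7 to 46.3), and these intervals do not overlap. The 23 antigen presentation genes and the 14 checkpoint ligand genes had 0, at upper limits of 14.3% and 21.5%. Every one of these intervals includes 7.01%.

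Epithelial junction genes had the highest share, 5 of 24 (20.8%; 9.24 to 40.5), above 7.01% at its lower limit, in a list chosen with earlier results known and 1 of 16 lists read. A region open in both WT libraries lay near 23 of the 24, whereas the 7.01% is over all genes, with such a region or not. A sgFLI1-only region lay near 3 of the 24. They included the promoters of the desmosomal cadherins DSC3 (21 and 18 tags, WT first) and DSC2 (19 and 22), which lie on chromosome 18, where the share of WT-only regions was highest. Further regions were at −6824 bp from the TSS of E-cadherin (CDH1; 26 and 17 tags) and at TJP3 (27 and 29). The Poisson intervals of WT and WT-IFN-γ overlapped in these 4 genes. Keratins and squamous genes had 3 of 36: the SOX2 promoter (25 and 32 tags), TP63 at −8110 bp from a TSS (14 and 48 tags) and S100A9 (28 and 19).

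Axon guidance genes had 3 of 36. The promoter of SLIT2, a secreted ligand of ROBO receptors, had 61 tags in WT (46.7 to 78.4) and 51 in WT-IFN-γ (38.0 to 67.1) with limits of 16 and 15, and that of the semaphorin gene SEMA3A had 31 and 42. SLIT2 and SEMA5A had 2 regions each, and the SEMA5A promoter had 18 and 21 tags. Wnt genes had 4 of 46, the R-spondin receptor gene LGR6 (41 and 35 tags), the receptor gene FZD8 (17 and 23), the ligand gene WNT11 (42 and 40) and the factor gene LEF1 (18 and 33). TGF-β genes had 2 of 31, the ligand TGFB2 (17 and 16) and the receptor TGFBR1 (11 and 10). Among HOX genes there were 3 of 39, of which HOXC10 and HOXC11 share 1 region with 41 and 23 tags, and HOXD3 had 20 and 25.

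The EMT list had 3 of 22 (ZEB2, SPARC and COL1A1) and integrins and laminins 3 of 30 (ITGA5, LAMA3 and LAMA5). LAMA3, on chromosome 18, had 21 tags in each WT library, and ITGA5 had 12 and 29. Kynurenine genes had 2 of 10 (IDO2 and KYAT1), lysine acetyltransferases 2 of 13 (CREBBP and HAT1) and chemokines and cytokines 1 of 34 (IL7, with 21 and 32 tags at its promoter). AP-1 factors had 2 of 16. These were tall but stood on a high local background. The JUN region had 99 and 102 tags with limits of 73 and 67, and the FOSB region 129 and 116 tags with limits of 98 and 84. No list other than the junction genes had an interval that excluded 7.01%.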

How the data were processed

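Chromatin accessibility was measured by ATAC-seq in 4 libraries of HK1 cells, 1 per group, with groups taken from the labels. The authors used Trimmomatic for trimming and Bowtie2 2.3.4.1 for alignment to GRCh38, discarded duplicates and poorly mapping reads, and ran MACS2 2.1.2 with a q-value limit. They also name an irreproducible-discovery filter, but whether a list is 1 replicate or pooled, and before or after that filter, is not given in the sources used here, nor is a shift of tags for the transposase. The deposited lists give, at each summit, the fold enrichment over local background as a ratio. The deposited p and q are −log10 values, and the deposited score is derived from the −log10 q.

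Whole summit pileups were recovered from the fold enrichment and the Poisson −log10 p. A whole number was found for 100% of peaks, within 0.002 of the deposited −log10 p. At high −log10 p the margin allowed was wider, in proportion to the value. Tag density was taken from the lowest background and the extension length. The listing limit of a knockout library at a place is the lowest pileup that reaches its lowest listed −log10 p over the local background. That background was scaled by the ratio of lowest backgrounds, not by tag density. Log2 ratios between libraries were divided by tag density. Genes are from GENCODE 44, and sequences from the GRCh38 genome. Repeated sequence was scored as the share of 31-base words that occur more than once in the genome.

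The regions, gene lists and patterns were chosen with earlier results of these data known. Named are the 10 members with the highest −log10 q in the weaker WT list, the 5 such at promoters, members in FLI1, IDO1, CREBBP and KAT5, the longest runs, the 10 genes with most members, up to 4 genes per list and the members nearest the threshold. Further genes (zinc finger promoters, 2 further promoters, runs tied at 4, extremes of the IFN-γ ratio, further genes of the lists, and the SOX5 and SLIT2 sequences) were named after their values were seen. Scripts used Python 3.11.15, numpy 2.4.6, pandas 2.3.3, scipy 1.17.1 and pysam 0.24.0, and were tested on simulated data. Regions on chromosomes other than 1 to 22 and X were not used. Only a selection of the sequences is shown. 1 gene and 1 sequence that fall under the naming rule are not reported here.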

Additional observations from a re-analysis of the deposited data

How the results depend on the processing

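Across 14 results and their alternatives, 34 values moved and 45 did not, where a share had to stay within its counting interval and a count only within 1.5 times. Among the counts that stayed within this wide limit, 3251 regions and 1073 genes were left without chromosomes 9, 16, 18 and 19, and 3310 regions reached the limit set at a −log10 q of 2. Stricter WT lists moved most. At a −log10 q of at least 5 in both WT lists 1947 regions were left, all listed at knockout depth, with AP1 in 19.8%, CTCF in 8.27%, 42 regions 2-fold higher and 15 lower with IFN-γ, shares of 11.4% on chromosome 18 and 2.29% on 22, 733 genes and a longest run of 3. At 10 or more the same values were 607 regions, AP1 in 19.9%, 9 higher and 4 lower, 4.15% and 1.04%, 244 genes and a run of 2, with 18.1% within 3 kb of a TSS. That last share was 14.4% without regions that have a knockout peak within 1 kb, 14.2% without chromosomes 9, 16, 18 and 19, and 8.77% for a 1 kb limit. Searching 50 bp either side of the summit gave ETS in 0.153%, AP1 in 10.8% and CTCF in 5.24%. For IFN-γ, the deposited fold enrichment gave 52 higher and 6 lower, and a 1.5-fold limit 399 and 436. Gene windows of 3 kb and 50 kb gave 617 and 4098 genes. Counting only regions of both WT libraries as neighbours, an alternative chosen after seeing the data, gave a longest run of 10. No run length was computed for membership by direct overlap, and no share of chromosome 18 without that chromosome. No paired analysis was possible because each group has 1 library and no replicate number. With 1 library per group, differences between the WT and knockout cell lines, between cultures and between libraries cannot be told apart. Low pileups limit what can be said of single regions.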

Other observations

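Among regions open in both WT libraries, several further long runs of WT-only regions lay in stretches with few genes, and these were picked out after their values were seen. On chromosome 11, 8 in a row covered 874 kb whose nearest protein-coding gene is TENM4, a teneurin of neuronal wiring. Their pileups ran from 10 to 74 tags in WT and from 17 to 95 in WT-IFN-γ, with 0 peaks in either sgFLI1 list. On chromosome 16, 6 in a row covered 2346 kb around the cadherin gene CDH8, at 15 to 40 tags in WT and 16 to 34 in WT-IFN-γ, again with 0 sgFLI1-list peaks. A run of 8 on chromosome 18 covered 3110 kb with the serpin gene SERPINB8 and the cadherin genes CDH7 and CDH19, where sgFLI1 had 1 peak of 15 tags and sgFLI1-IFN-γ had 0. Regions in all 4 lists within 1 Mb of that run had a median log2 ratio of −0.35 (sgFLI1 to WT) and −0.51 (under IFN-γ).

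Chromosome 9 held bins at both ends of the scale. In its first 20 Mb the median log2 ratio of sgFLI1 to WT was 0.79 and 0.73 in the successive bins of 10 Mb, and 2 of 63 and 4 of 63 regions open in both WT libraries were WT-only. In the next bin, at 20 to 30 Mb, the ratio was 0.51 and 13 of 100 regions were WT-only. At 70 to 90 Mb the ratios were −0.46 and −0.42, and 37 of 162 and 40 of 172 regions were WT-only.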
